A study of Caenorhabditis elegans with 2 samples.

Results

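The peaks described here are the 229 listed by the authors on the mitochondrial chromosome of Caenorhabditis elegans, out of 183241 listed peaks in all. They were chosen by the chromosome name alone: 118 of the 77986 peaks of the CAR-1(FL) list and 111 of the 105255 peaks of the CAR-1(dSm) list. The experiment was seCLIP-seq, in which RNA is crosslinked to a protein, pulled down with it and sequenced from single-end libraries. The protein pulled down was CAR-1, which binds RNA, belongs to the LSm14 family and is known from cytoplasmic RNA granules. One library came from strain CZ25180, titled CAR-1(FL), and the other from strain CZ26430, titled CAR-1(dSm). GFP-trap, a single-domain antibody to GFP bound to beads, served for the pull-down in each. The question is whether either form brought down more of a given RNA. The sources used here do not say what dSm stands for, which promoter drove the tagged form, or how old and how many the animals were, and neither an input library nor a pull-down from untagged animals was used here. With 1 library per group there was no spread between replicates and no test, so each difference describes these 2 libraries only.

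The worm mitochondrial genome is a small circle whose genes all lie on the same strand. They are transcribed as long precursors from which tRNAs are cut out, which frees the mRNAs and rRNAs between them. The mRNAs encode core subunits of the respiratory chain and of the ATP synthase, and the rRNAs form the mitochondrial ribosome. A RefSeq table of the assembly WBcel235 names 36 genes on this chromosome: 12 for proteins, 2 for rRNAs and 22 for tRNAs. In its order, the shorter rRNA gene (697 bases) follows ND6 and ND4L, which encode complex I subunits, and stands 7th from the start. Next come, with tRNA genes between many of them, ND1, ATP6, ND2, CYTB, COX3, ND4, COX1 and COX2. The longer rRNA gene (953 bases) stands 33rd and is followed by ND3 and ND5, again of complex I. The peak files use the build ce10, and the expression tables analysed here give loci on the 6 nuclear chromosomes only, so no peak was assigned to a gene and no level of a mitochondrial gene is given. All positions below are on the mitochondrial chromosome in ce10, on the plus strand, counted from 1.

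At most of these peaks, mitochondrial reads made up a larger share of the CAR-1(FL) library than of the CAR-1(dSm) library. A higher CAR-1(FL) value was listed for 210 of the 229 peaks (91.7%), against 38.5% of the 183012 nuclear peaks. The median log2 ratio of CAR-1(FL) to CAR-1(dSm) was 0.53, or 1.45-fold, with quartiles of 0.29 and 0.70 and a range of −0.47 to 1.23. Over all peaks of both lists the median was −0.21. The differences were small in size: 221 of the 229 ratios were within 1 log2 unit of no difference. These ratios are the authors' own, scaled by the total reads of each library. In such bulk libraries, more mitochondrial RNA per cell, more cells rich in mitochondria and more recovery by the tagged protein cannot be told apart.

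The direction was the same in both lists, which were made by the authors separately for each library and give each peak's ratio to the other library. In the CAR-1(FL) list 110 of 118 peaks (93.2%) were higher in CAR-1(FL), where 50.3% of the whole list were, and their median log2 ratio was 0.57. In the CAR-1(dSm) list 11 of 111 peaks (9.91%) were higher in CAR-1(dSm), where 70.1% of the whole list were, and their median log2 ratio of CAR-1(FL) to CAR-1(dSm) was 0.51. The lists are not independent, because overlapping peaks count the same reads. All 126 overlapping pairs had the same direction, with a median difference of 0.026 and a largest difference of 0.45 in log2 ratio. On each of the 6 nuclear chromosomes the share of peaks higher in CAR-1(FL) was between 47.4% and 53.2% in the CAR-1(FL) list, as the plot by chromosome shows.

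**Figure D1:**
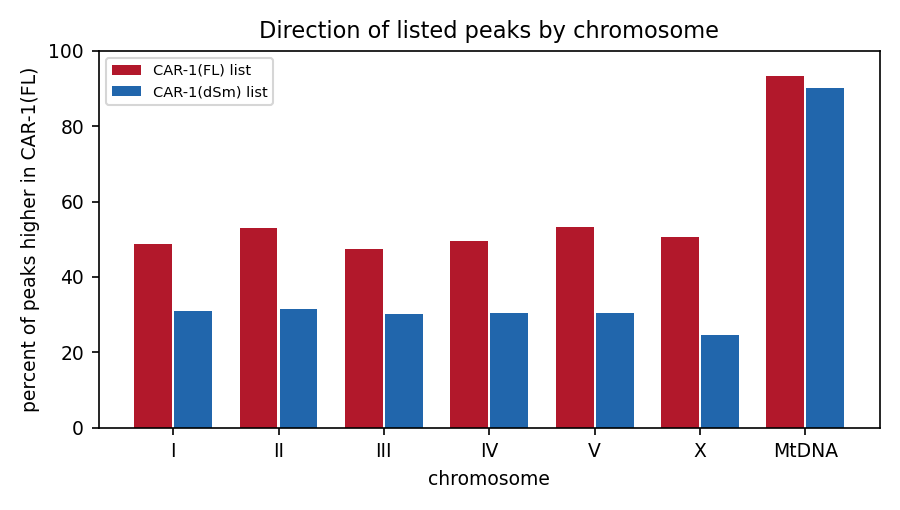
Percent of listed peaks with a higher value in CAR-1(FL) than in CAR-1(dSm) (vertical axis) on each chromosome (horizontal axis), with red bars for the CAR-1(FL) list and blue bars for the CAR-1(dSm) list. Both mitochondrial bars stand at or above 90%, while the nuclear bars of the CAR-1(FL) list lie between 47.4% and 53.2%.

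Peaks whose ratio in lowest terms needs at least 100 reads in each library showed the same direction. These are not all the peaks of that depth, because a deep peak whose read numbers share a divisor can be left out. Among them, 110 of 115 mitochondrial peaks (95.7%) were higher in CAR-1(FL), with a median log2 ratio of 0.58. Of the 3742 nuclear peaks with such ratios, 39.5% were higher in CAR-1(FL), with a median of −0.13. This comparison was chosen after the data were seen.

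The authors' −log10 p for a peak compares the reads of these 2 libraries and is above 0 only for the library in which the peak is higher. Where the −log10 p was 3 or more and the log2 ratio 1 or more, 4 of the 118 mitochondrial peaks of the CAR-1(FL) list were called higher in CAR-1(FL), against 0.224% of that whole list. By the same rule 0 of the 111 peaks of the CAR-1(dSm) list were called higher in CAR-1(dSm), against 1.99% of that whole list. With any positive ratio at a −log10 p of at least 3, the calls were 59 of 118 (0.799% of the whole list) and 2 of 111 (2.75% of the whole list). Touching peaks can share reads, so these are counts of listed peaks and not of separate sites. The 2 calls for CAR-1(dSm) are touching peaks with nearly the same reads, and 3 of the 4 calls for CAR-1(FL) lie in 1 site, at 11095 to 11134. Some CAR-1(FL)-list peaks have a ratio in lowest terms that needs at least 100 reads in each library. Of these, 49 of 62 mitochondrial peaks (79.0%) and 384 of 1771 nuclear peaks (21.7%) reached a −log10 p of 3. Only peaks higher in CAR-1(FL) could reach it, which were 61 of these mitochondrial and 726 of these nuclear peaks. Depth above that floor was not matched. A −log10 p of 400, the value written in place of anything above 87.8, was listed for 18 mitochondrial peaks, which is 11.3% of the 159 such peaks of the CAR-1(FL) list.

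The read numbers behind the ratios could be worked out for many peaks, because each ratio is one of whole numbers and the p fixes their size. They came out for 112 of the 229 listed peaks, ranging from 9 to 11410 reads in CAR-1(FL) and from 12 to 9871 in the other library. For 15 peaks at the −log10 p of 400 they have a lower bound from the ratio and p. For 102 peaks only the ratio in lowest terms is known, which also sets a floor on the reads. The ratios and p-values correspond to totals of 4022150 reads in CAR-1(FL) against 5470606 in CAR-1(dSm), which also serve to scale reads to RPM, the reads per 1000000 in all. Intervals given below are exact 95% intervals from these reads and cover counting error only. They say nothing of the spread between cultures. The sources used here do not say how reads were assigned to peaks, but the values show that touching peaks can share reads. At 1623 to 1647, each of 2 touching peaks of the CAR-1(dSm) list had 712 reads in CAR-1(dSm). The CAR-1(FL)-list peak at 1624 to 1647, which covers nearly all of both, fits only 397 and 712 reads.

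All 229 peaks were on the plus strand, where 51.0% and 50.7% of the nuclear peaks of the CAR-1(FL) and CAR-1(dSm) lists were. The first started at position 77 and the last ended at position 13001. Over these 12925 bases, peaks of either list covered 3701 bases (28.6%), and 2904 bases were covered by both lists. Peaks that overlapped or touched formed 85 sites with a median width of 35 bases and a median gap of 90 bases. The longest gap, of 405 bases, followed a peak that ended at position 3894. Of the 85 sites, 70 held peaks of both lists, 10 only of the CAR-1(FL) list and 5 only of the CAR-1(dSm) list. No site held peaks of both directions. Among the sites in both lists, 62 were higher in CAR-1(FL) and 8 were lower.

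The lists overlapped more here than elsewhere: 104 of the 118 CAR-1(FL) peaks (88.1%) and 104 of the 111 CAR-1(dSm) peaks (93.7%) were overlapped by the other list, against 69.2% and 53.4% of the nuclear peaks. Ratios that need at least 100 reads in each library were more common on this chromosome, at 115 of 229 peaks against 3742 of 183012 nuclear ones, and the part of depth in the overlap was not tested. The 10 sites found only in the CAR-1(FL) list were all higher in CAR-1(FL). Among the 5 sites only in the CAR-1(dSm) list, 3 were nevertheless higher in CAR-1(FL).

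**Figure D2:**
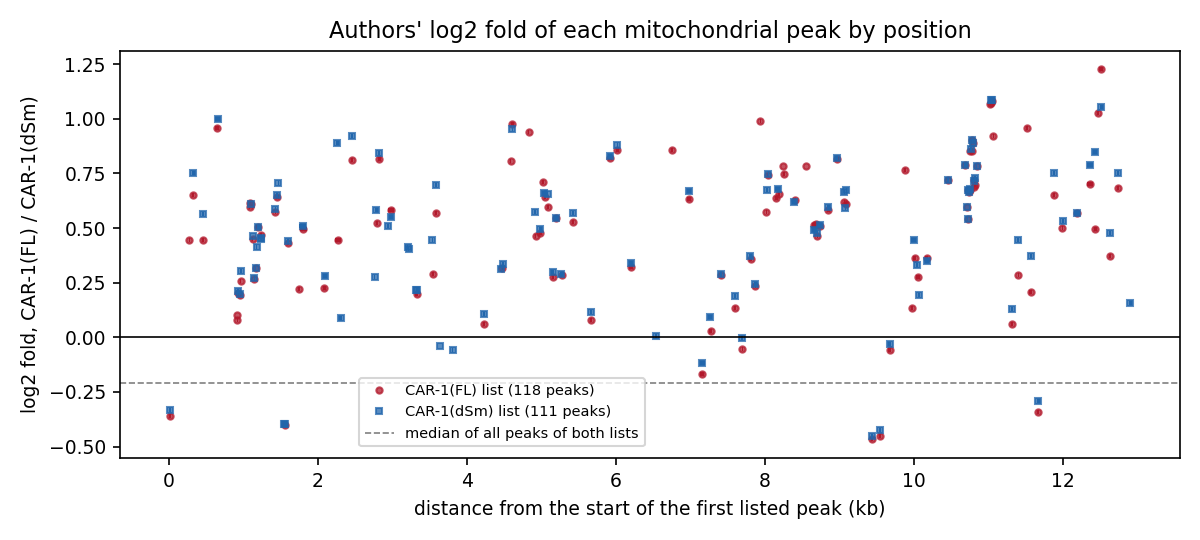
Authors' log2 ratio of CAR-1(FL) to CAR-1(dSm) for each mitochondrial peak (vertical axis) against the distance of the peak from the start of the first listed peak in kilobases (horizontal axis). Red circles are the 118 peaks of the CAR-1(FL) list, blue squares the 111 peaks of the CAR-1(dSm) list, and the dashed line is the median of all peaks of both lists, −0.21. Peaks below 0 are few and lie at separate places along the chromosome.

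Along the chromosome, the median log2 ratio was positive in each of 13 consecutive windows of 1000 bases, each peak being placed by its midpoint. It was 0.21 in the window from 7000 to 7999, where 12 of 16 peaks were higher in CAR-1(FL). From 6000 to 6999 it was 0.82 over 7 peaks, all higher in CAR-1(FL), and 0.34 over the CAR-1(dSm) list alone, so the windows are not ranked. From 9000 to 9999 the peaks were the most divided, with 8 higher in CAR-1(FL) and 6 higher in CAR-1(dSm). The median there was 0.60 and became −0.045 when only peaks of at least 20 bases were kept.

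Reads were concentrated in a pair of stretches, at positions 991 to 1557 and 10531 to 11151, chosen here after the read numbers were seen. One lies near the start and the other near the end of the listed span. The rRNA genes also stand near the start and near the end of the RefSeq gene order, but no peak was assigned to them. Outside both stretches, the largest read number recovered in CAR-1(FL) was 628, at 5969 to 6032. In CAR-1(dSm) it was 712, at a different site, 1623 to 1647. Leaving out both stretches, 88.6% of the peaks were higher in CAR-1(FL), with a median of 0.50.

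**Figure D3:**
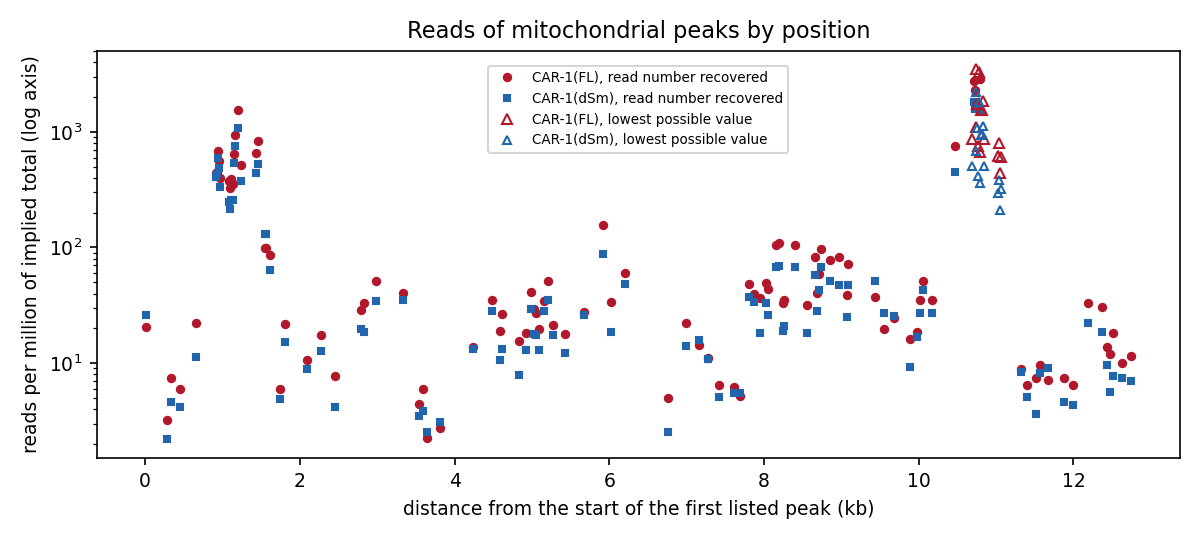
Reads per 1000000 of the totals worked out here (RPM, vertical axis, log scale) for mitochondrial peaks against the distance from the start of the first listed peak in kilobases (horizontal axis), in CAR-1(FL) (red) and CAR-1(dSm) (blue). Filled symbols are peaks with recovered read numbers. Open triangles are the lowest values that fit a peak's own ratio and p, for peaks at the −log10 p of 400, and true values can be much higher. The values rise in both libraries at the same places, and red symbols lie above blue ones in both stretches of high values.

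The first stretch, from 991 to 1557, held 29 peaks, all higher in CAR-1(FL), with a median log2 ratio of 0.45 and a range of 0.081 to 0.70. Its 15 peaks of the CAR-1(FL) list had 1315 to 6199 reads in CAR-1(FL) and 1167 to 5945 in CAR-1(dSm), and 13 of them reached a −log10 p of 3. The deepest, at 1255 to 1305, had 6199 reads in CAR-1(FL) against 5945 in CAR-1(dSm), or 1541 and 1087 RPM. Its log2 ratio was 0.50 (interval 0.45 to 0.56). At 1202 to 1214 the read numbers were nearly equal, 1418 and 1412, and the log2 ratio of 0.45 was close to the 0.44 by which the totals of the libraries differ.

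The ratio was not even within this stretch. It was lowest at the start, where the peak at 998 to 1002 had 1825 reads in CAR-1(FL) against 2346 in CAR-1(dSm), a log2 ratio of 0.081 (interval −0.0076 to 0.17). The neighbouring peak at 1003 to 1024 had 2734 and 3230 reads, a log2 ratio of 0.20 (interval 0.13 to 0.28). At the far end, the peak at 1513 to 1557 had 3339 and 2907 reads, a log2 ratio of 0.64 (interval 0.57 to 0.72). The intervals at the start and at the far end do not overlap, but these peaks were compared after their values were seen, and the difference was not tested. Between them, the ratio was 0.61 at 1172 to 1174, one of the narrowest CAR-1(FL) peaks with 3 bases (1315 and 1167 reads), and fell back to 0.27 at 1223 to 1232 (2611 and 2946 reads).

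The direction turned just past this stretch. The site at 1623 to 1647 was higher in CAR-1(dSm), and its peaks had the highest −log10 p of the mitochondrial peaks of the CAR-1(dSm) list. The peak at 1623 to 1636 had 396 reads in CAR-1(FL) against 712 in CAR-1(dSm), or 98.5 and 130 RPM. Its log2 ratio of CAR-1(FL) to CAR-1(dSm) was −0.40 (interval −0.58 to −0.22), with a −log10 p of 4.96. Its neighbour at 1637 to 1647 had 397 and 712 reads, with a −log10 p of 4.89. These are nearly the same reads, so the neighbour is not separate evidence. The next site, at 1671 to 1699, was again higher in CAR-1(FL), with 349 and 351 reads and a log2 ratio of 0.43 (interval 0.22 to 0.65).

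The second stretch, from 10531 to 11151, held 34 peaks, all higher in CAR-1(FL), with a median log2 ratio of 0.76 and a range of 0.54 to 1.09. It held 19 peaks of the CAR-1(FL) list, all with a −log10 p of at least 3, among them all 18 at 400. Its peaks were narrow, with a median width of 11 bases. Of them, 14 of the CAR-1(FL) list and 12 of the CAR-1(dSm) list overlapped or touched. They formed the widest site of the chromosome, 179 bases from 10753 to 10931. The only CAR-1(FL) peak of the stretch below a −log10 p of 400, at 10532 to 10555, had 3005 reads in CAR-1(FL) against 2479 in CAR-1(dSm). Its log2 ratio was 0.72 (interval 0.64 to 0.80) and its −log10 p 76.5.

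Inside the widest site the ratio dipped and rose again. At 10788 to 10797 there were 10986 reads in CAR-1(FL) against 9871 in CAR-1(dSm), or 2731 and 1804 RPM, a log2 ratio of 0.60 (interval 0.56 to 0.64). The lowest ratio, 0.54 (interval 0.50 to 0.58), was at 10798 to 10806, with 9252 and 8657 reads. The highest, 0.90 (interval 0.86 to 0.94), was at 10864 to 10866, a peak of 3 bases with 11410 and 8298 reads. The intervals of the lowest and the highest ratio do not overlap, but they cover counting error only and treat each read as independent. Which peaks to compare was chosen after the values were seen, and the difference was not tested. At 10815 to 10820 at least 13989 reads in CAR-1(FL) and at least 12004 in CAR-1(dSm) stood behind a log2 ratio of 0.66, and at 10845 to 10863 at least 13289 and 9992 behind 0.85.

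The other peaks of that site with the −log10 p of 400 filled in this course. The log2 ratio was 0.79 at its first peak (10753 to 10787), 0.67 at 10807 to 10814 and 0.68 at 10821 to 10833. It was 0.85 at 10834 to 10844 and 0.89 at 10867 to 10878. Beyond, it was 0.72 at 10879 to 10886, 0.69 at 10887 to 10890, 0.70 at 10891 to 10915 and 0.78 at the last peak (10916 to 10931). From each peak's own ratio and p alone, the lowest bound among these 9 peaks was 2696 reads in CAR-1(FL) against 1979 in CAR-1(dSm), at 10867 to 10878. The bounds are loose and do not rank the peaks by depth. The CAR-1(dSm)-list peak at 10867 to 10879, 1 base longer, has a ratio of 10826 to 7959 in lowest terms.

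After a gap of 163 bases, the peaks from 11095 to 11151 had the largest ratios among the deep peaks. The peaks at 11095 to 11104, 11105 to 11117 and 11118 to 11134 had log2 ratios of 1.07, 1.07 and 1.08, or 2.09-, 2.10- and 2.12-fold. From their own ratios and p, at least 2473, 3224 and 1790 reads in CAR-1(FL) and 1606, 2084 and 1149 in CAR-1(dSm) stood behind them. These bounds are loose: the CAR-1(dSm)-list peak at 11118 to 11128, inside the last of them, has a ratio of 3177 to 2033 in lowest terms. The last of the group, at 11141 to 11151, had a log2 ratio of 0.92 on at least 2428 and 1740 reads.

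Between both stretches, from 1623 to 10276, the peaks were shallower and the direction was mostly kept. Of the 130 peaks there, 115 were higher in CAR-1(FL), with a median log2 ratio of 0.48. In the CAR-1(FL) list the 59 peaks with recovered numbers had 18 to 628 reads in CAR-1(FL), with a median of 137, and 14 to 482 in CAR-1(dSm), with a median of 108. The deepest was at 5969 to 6032, with 628 and 482 reads, a log2 ratio of 0.82 (interval 0.65 to 0.9997) and a −log10 p of 20.8. From 8000 to 8999 all 22 peaks were higher in CAR-1(FL), and 13 of the 14 CAR-1(FL) peaks reached a −log10 p of 3. There the peak at 8014 to 8027 had 146 and 99 reads, a log2 ratio of 0.99 (interval 0.63 to 1.39).

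Past 11151, 25 of 27 peaks were higher in CAR-1(FL), with a median log2 ratio of 0.53. The largest ratio of the chromosome was here, at 12564 to 12617, with 74 reads in CAR-1(FL) against 42 in CAR-1(dSm), or 18.4 and 7.68 RPM. Its log2 ratio was 1.23 (interval 0.70 to 1.84), a width that counting error alone gives at this depth, and its −log10 p was 5.12. It was the only one of the 4 called peaks outside the positions 11095 to 11134. The peak before it, at 12533 to 12563, had 48 and 31 reads and a log2 ratio of 1.03, with a −log10 p of 2.68. The last CAR-1(FL) peak, at 12801 to 12828, had 46 and 38 reads and a log2 ratio of 0.68, and the last CAR-1(dSm) peak, at 12965 to 13001, had a ratio of 0.16.

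Higher values in CAR-1(dSm) were found at 10 sites, at separate places along the chromosome. Besides 1623 to 1647, the strongest were a pair of sites 78 bases apart. At 9501 to 9532 there were 150 reads in CAR-1(FL) against 281 in CAR-1(dSm), or 37.3 and 51.4 RPM, a log2 ratio of −0.45 (interval −0.76 to −0.17) and a −log10 p of 2.67. At 9611 to 9643 there were 80 and 148 reads, a log2 ratio of −0.43 (interval −0.85 to −0.042) and a −log10 p of 1.42. The site before this pair, at 9143 to 9186, had a median log2 ratio of 0.62. After it came a site near 0, at 9738 to 9774, and then one at 9951 to 9969 with a ratio of 0.77.

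At the other sites higher in CAR-1(dSm), the interval of the ratio of each CAR-1(dSm)-list peak included 0. The first peak of the chromosome, at 77 to 105, had 83 reads in CAR-1(FL) against 144 in CAR-1(dSm), a log2 ratio of −0.33 (interval −0.76 to 0.048). At 11728 to 11768 there were 29 and 50 reads, a log2 ratio of −0.29 (interval −1.05 to 0.35). At 7205 to 7273 there were 58 and 87 reads, a ratio of −0.12 (interval −0.65 to 0.35). The single-base peak at 3722 had 9 and 14 reads and a ratio of −0.042 (interval −1.58 to 1.12). The other three, at 3884 to 3894, 7757 to 7781 and 9738 to 9774, had median log2 ratios of −0.059, −0.029 and −0.045.

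Mitochondrial peaks were narrower than nuclear ones. The median width was 24.5 bases in the CAR-1(FL) list (quartiles 14.25 and 38.75, range 3 to 92) and 29 bases in the CAR-1(dSm) list (quartiles 14 and 39.5, range 1 to 105). Nuclear peaks had a median width of 40 bases in each list. Among peaks of both lists whose ratio in lowest terms needs at least 100 reads in each library, the median was 22 bases on this chromosome and 33 on the nuclear ones. Median widths were lowest in the deep stretches, at 15 bases from 991 to 1557 and 11 bases from 10531 to 11151, against 30 bases between them. Many of the peaks bordered each other without a gap: 38 neighbouring pairs of the CAR-1(FL) list and 35 of the CAR-1(dSm) list did so.

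The widest CAR-1(FL) peak, 92 bases at 1838 to 1929, had 87 reads in CAR-1(FL) against 83 in CAR-1(dSm), a log2 ratio of 0.49 (interval 0.061 to 0.96). The widest CAR-1(dSm) peak, 105 bases at 1823 to 1927, overlapped it and had a ratio of 0.51. Among the narrowest CAR-1(FL) peaks was the one at 10864 to 10866, with the largest recovered read number of the chromosome in CAR-1(FL), while the narrowest CAR-1(dSm) peak, at 3722, had the smallest. Merging touching peaks of a list raised the median widths to 30.5 and 36 bases, still below the nuclear medians of the unmerged peaks.

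**Figure D4:**
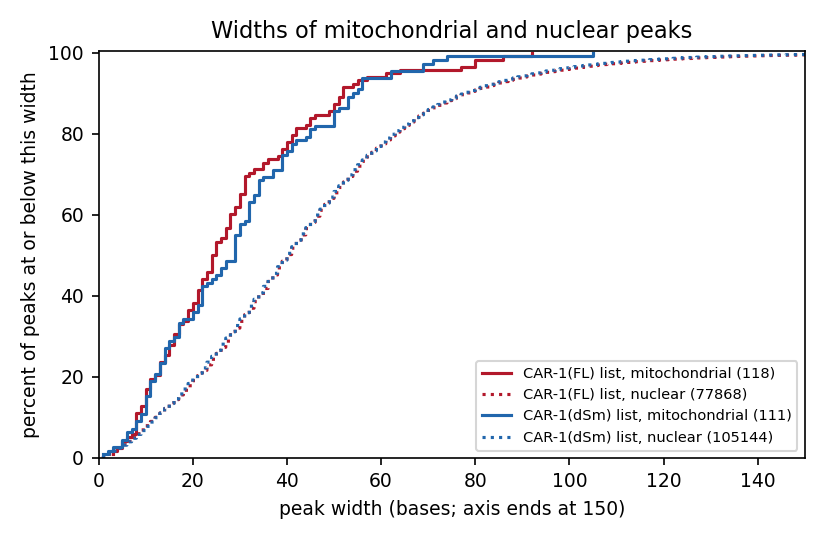
Cumulative percent of peaks (vertical axis) at or below a given width in bases (horizontal axis, which ends at 150), for mitochondrial (solid) and nuclear (dotted) peaks of the CAR-1(FL) list (red) and the CAR-1(dSm) list (blue). The solid lines rise before the dotted ones, with medians of 24.5 and 29 bases against 40.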

How the data were processed

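The submitters' processing notes name the build ce10 and the tools cutadapt, UMI-tools, SAMtools and STAR. The peak caller, the extraction protocol, the read filters and the treatment of multiply mapping reads were not given in the sources used here. Each library has 1 deposited peak list. From the values, the deposited scores are a −log10 of a p-value (400 in place of the largest) and a log2 fold of the list's own library against the other library. Folds of the CAR-1(dSm) list were turned round here, so that a positive value means higher in CAR-1(FL). The deposited FPKM tables hold nuclear loci, so the planned comparison of mitochondrial FPKM was not made.

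Read numbers were sought as whole numbers that give both the fold and the p of a Yates-corrected chi-square. The relative tolerance was 3e-13 on the ratio, after the shift of 0.44 in log2 between the totals. It was 0.001 on the −log10 p, again relative. The folds add 1 read to the other library, which held in 6 of 6 mitochondrial and 42 of 42 nuclear intervals listed identically by both. That read is removed from printed numbers but not from ratios. The recovery was checked on simulated data. Intervals are Clopper-Pearson. Python 3.11.15, pandas 2.3.3, NumPy 2.4.6 and SciPy 1.17.1 were used.

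Peaks are named by rule: per list the 8 highest −log10 p with ties, the 5 largest positive folds at a −log10 p of at least 3, the widest, narrowest, first and last. Other peaks printed were chosen after their values were seen, and members and rules were chosen with earlier results of these data known. Peak thresholds, centring, width, overlap and list were varied.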

Additional observations from a re-analysis of the deposited data

How the results depend on the processing

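With 1 library per group, no replicate could be left out and no test was made. No paired analysis was possible because each group has 1 library. The 4 peaks called higher in CAR-1(FL) became 0 at a log2 fold of at least 3, 59 at any positive fold and 16 after centring on the median of all peaks, and the 0 called higher in CAR-1(dSm) became 2 at any positive fold. The share of peaks higher in CAR-1(FL) moved from 91.7% to 95.2% after centring and to 95.7% over peaks whose ratio in lowest terms needs at least 100 reads in each library, an alternative chosen after seeing the data, and the median log2 fold from 0.53 to 0.74 and 0.58. Reciprocal overlap of 50% lowered the overlapped shares to 75.4% of CAR-1(FL) and 80.2% of CAR-1(dSm) peaks. Median widths became 18 and 12.5 bases at a −log10 p of at least 3, and 30.5 and 36 bases after merging. Mitochondrial shares of the CAR-1(FL) list were 0.151% of peaks, 0.0966% of bases and 9.47% of peaks at a −log10 p of at least 3; those of the CAR-1(dSm) list were 0.105%, 0.0712% and 0.0691%. In the window from 9000 to 9999 the median log2 fold turned from 0.60 to −0.045 with peaks of at least 20 bases only. That cut drops the peaks at 9143 to 9148, 9143 to 9150, 9149 to 9163 and 9951 to 9969, all higher in CAR-1(FL). It keeps all peaks of the window that were higher in CAR-1(dSm). Why the directions differ within the window was not tested. No other window changed sign. The alternatives for FPKM were not run.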
